A study of Mus musculus with 2 samples.

Results

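Hepatic expression of 10 genes that coat lipid droplets or control the release of fatty acids from them was compared between L-Lpcat3 KO and Flox/Flox mice. The genes were the perilipins Plin2, Plin3, Plin4 and Plin5, the CIDE genes Cidea, Cideb and Cidec, the triglyceride lipase gene Pnpla2, its inhibitor G0s2 and the droplet enzyme gene Hsd17b13. They were picked by name, and every probe set that the array's annotation assigned to them was taken. This gave 13 probe sets for 10 of the 18193 genes with a probe set of their own. A single probe set stood for 7 of the genes, while Plin5, Pnpla2 and Hsd17b13 had 2 each. No probe set shared with a further gene listed any of them.

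All mice were male, 12 weeks old, fed chow and fasted for 6 hr before the liver was taken, and all carried Lpcat3 alleles flanked by loxP sites (Lpcat3fl/fl). Flox/Flox mice had no Cre. L-Lpcat3 KO mice (Lpcat3fl/fl Albumin-Cre) carried in addition a Cre transgene under the albumin promoter, which is active in hepatocytes. The paper proposes that cells without this Cre, such as Kupffer and endothelial cells, likely keep Lpcat3. Lpcat3 encodes an acyltransferase of the endoplasmic reticulum that places polyunsaturated chains into phosphatidylcholine, the main phospholipid of membranes and of the droplet surface. Total RNA of 5 mice was pooled per genotype and hybridized to 1 Affymetrix mouse whole-genome array, so there are 2 arrays in all and no replicates. Every ratio is therefore a single difference between 2 pools with no error among mice, and no test was run on any of them. In whole liver, fewer cells of a type and less RNA per cell cannot be told apart.

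A lipid droplet is a core of triglyceride and cholesterol ester under a phospholipid monolayer. Perilipins sit on that monolayer and govern the access of lipases, and CIDE proteins gather at contact sites between droplets, where they let lipid pass from smaller to larger ones. Adipose triglyceride lipase, the product of Pnpla2, cuts the first fatty acid from triglyceride, and G0s2 binds and inhibits it. In liver, droplets store fatty acids that arrive from adipose tissue during fasting, and several of these genes are targets of the nuclear receptors PPARα and PPARγ.

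The promoters of the 3 genes with the highest ratios described below and of Plin2, the perilipin that covers most hepatic droplets, are shown first. PPAR receptors bind, with their partner RXR, to the 6 letters AGGTCA repeated in the same direction with 1 base between the copies. The RefSeq annotation of build GRCm38.p6 gave 11 promoters for 9 of the 10 genes, each from 250 bases before to 50 bases after an annotated start. Capitals mark a single exact copy (AGGTCA, or TGACCT where it lies on the other strand). All sequences run 5′ to 3′ in the direction of transcription.
Cidec promoter of the first annotated start, chr6:113435711-113436010, minus strand: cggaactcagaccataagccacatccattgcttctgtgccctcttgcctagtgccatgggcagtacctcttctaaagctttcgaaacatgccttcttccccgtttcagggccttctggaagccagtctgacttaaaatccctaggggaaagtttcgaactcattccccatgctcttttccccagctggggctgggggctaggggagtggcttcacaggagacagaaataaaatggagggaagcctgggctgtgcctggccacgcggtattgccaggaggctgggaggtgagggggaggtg
Cidec promoter of the other annotated start, chr6:113434715-113435014, minus strand: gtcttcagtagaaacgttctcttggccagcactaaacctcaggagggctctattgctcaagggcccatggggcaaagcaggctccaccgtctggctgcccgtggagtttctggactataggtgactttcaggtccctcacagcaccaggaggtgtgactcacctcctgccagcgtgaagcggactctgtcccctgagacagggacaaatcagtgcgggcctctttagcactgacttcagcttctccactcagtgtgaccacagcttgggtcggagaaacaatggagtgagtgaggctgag
G0s2 promoter, chr1:193273139-193273438, minus strand: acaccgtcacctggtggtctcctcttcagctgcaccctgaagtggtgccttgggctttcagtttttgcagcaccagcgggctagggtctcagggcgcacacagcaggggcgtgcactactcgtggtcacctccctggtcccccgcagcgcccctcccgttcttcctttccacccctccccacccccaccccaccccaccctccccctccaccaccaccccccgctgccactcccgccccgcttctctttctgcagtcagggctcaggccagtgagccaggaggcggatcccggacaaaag
Plin5 promoter of the first annotated start, chr17:56117499-56117798, minus strand: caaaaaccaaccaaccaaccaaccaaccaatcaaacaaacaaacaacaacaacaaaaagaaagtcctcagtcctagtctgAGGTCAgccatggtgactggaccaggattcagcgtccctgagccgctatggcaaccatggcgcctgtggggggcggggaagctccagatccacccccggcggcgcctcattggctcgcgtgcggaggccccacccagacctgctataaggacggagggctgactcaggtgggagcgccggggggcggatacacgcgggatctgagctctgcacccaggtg
Plin2 promoter, chr4:86670010-86670309, minus strand: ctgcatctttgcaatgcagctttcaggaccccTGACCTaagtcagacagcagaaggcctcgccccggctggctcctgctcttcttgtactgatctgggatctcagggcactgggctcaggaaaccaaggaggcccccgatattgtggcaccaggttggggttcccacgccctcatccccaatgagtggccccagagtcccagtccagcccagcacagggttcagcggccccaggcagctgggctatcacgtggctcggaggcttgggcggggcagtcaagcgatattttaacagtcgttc

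The single copy was present in 4 of the 11 promoters, those of Plin2 (position -218, counted to its first letter, with the start base as 1 and the base before it as -1), Plin5 (position -170 of the first start and position 14 of the other) and Hsd17b13 (position -96). Its letters were not in the windows of Cidec, G0s2, Plin3, Plin4, Cideb or Pnpla2. Among all 32851 promoters of the same length, covering 27025 genes, 16.3% held it on either strand. The complete repeat of 12 letters with 1 base between its copies, searched on both strands, was in 0 of the 11 promoters and in 0.0396% of all. With up to 2 of the 12 letters different, a limit chosen after the data were seen, it was in 1 of the 11, that of Plin2, and in 3.86% of all. A match of letters is a description of the sequence and not a binding site, and the lack of one says only that these letters are not in this window.

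Signals are MAS5 intensities on a linear scale, set by the authors to a common mean on both arrays. A signal under 76.4, which is the median signal of the arrays, was treated as not above background and raised to that floor before a ratio was formed. A gene was measured if its brightest probe set lay above the floor in at least 1 pool. The Lpcat3 signal was 3310 in the Flox/Flox pool and 1305 in the L-Lpcat3 KO pool (log2 ratio -1.34), in the direction of the labels, although its probe set may read RNA outside the deleted exon. All 10 hepatocyte markers were above the floor in both pools, with a summed signal of 385456 in the Flox/Flox pool and 377057 in the L-Lpcat3 KO pool. The median log2 ratio of the 12059 measured genes was 0.00.

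Of the 10 genes, 9 were measured, 8 of them in both pools. Higher in L-Lpcat3 KO by more than 1.2-fold, a size chosen after the data were seen, were 3 genes: Cidec (at least 2.15-fold), G0s2 (1.43-fold) and Plin5 (1.35-fold). None was 1.2-fold lower. Of all 12059 measured genes, 15.5% were 1.2-fold higher and 13.6% were 1.2-fold lower. The remaining measured genes, Plin2, Plin3, Plin4, Cideb, Pnpla2 and Hsd17b13, lay within 1.2-fold by their brightest probe sets. Log2 ratios were above 0 for 8 genes and below 0 for 1, Cideb. Among the 8, Plin4 (0.00), Hsd17b13 (0.02) and Plin3 (0.02) were close to 0. Plin4 and Hsd17b13 each fell below 0 in 1 alternative setting, so the count of signs shows no common direction. The median of the 9 measured genes was 0.09, and 0.06 without Cidec, which is at the floor in Flox/Flox. That of all measured genes was 0.00. At the size of 1.5-fold, 1 of the 9 measured genes was higher and 0 were lower, where 4.01% of all measured genes were higher and 3.14% lower. The same gene, Cidec, was the 1 past 2-fold, a size that 0.556% of all measured genes reached in the higher direction. Cidec counts as measured only through its L-Lpcat3 KO signal. Among the 735 genes measured only in that pool, 4.08% reached 2-fold, which is the nearer share.

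**Figure D1:**
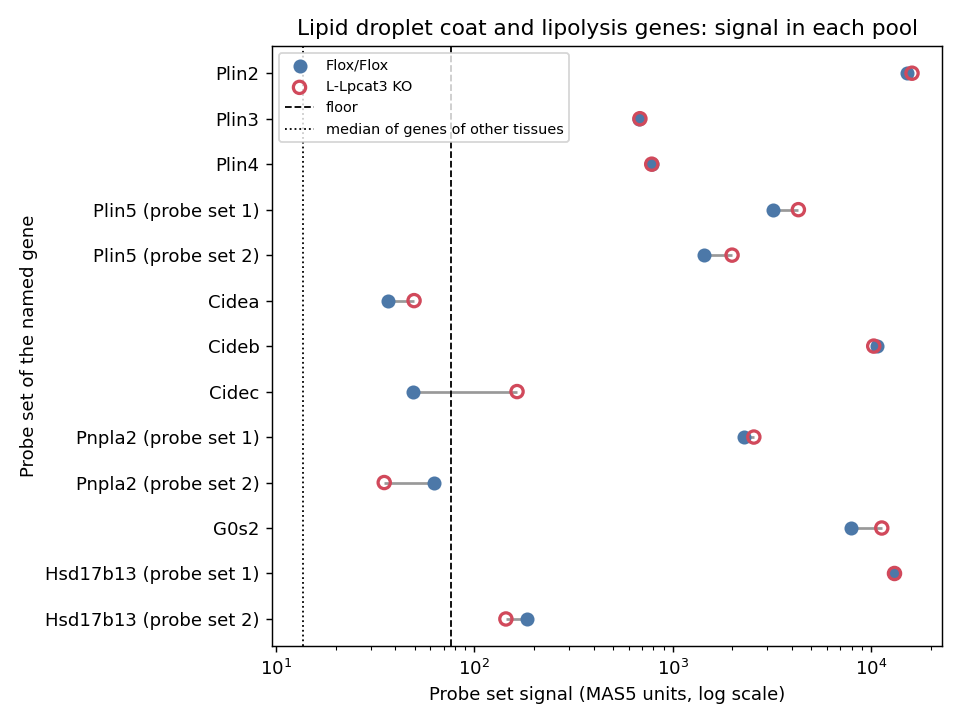
Signal of each of the 13 probe sets (x axis, MAS5 units, log scale) in the Flox/Flox pool (filled circles) and the L-Lpcat3 KO pool (open circles), 1 row per probe set with a grey line joining its 2 signals. The dashed line is the floor of 76.4 and the dotted line the median signal of genes of other tissues, 13.6. Cidec crosses the floor between pools, Cidea and the dim Pnpla2 probe set lie below it in both, and for G0s2 and both probe sets of Plin5 the L-Lpcat3 KO signal is the higher one.

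Plin2, which coats droplets in most cells and is stabilized by the lipid it covers, had a signal of 15177 in the Flox/Flox pool and 16132 in the L-Lpcat3 KO pool. The pools were 6.29% apart, a log2 ratio of 0.09. Plin3, a cytosolic perilipin that moves onto small nascent droplets, was 673 in the Flox/Flox pool and 684 in the L-Lpcat3 KO pool (log2 ratio 0.02). Plin4, found mainly on droplets of adipocytes and muscle, gave 784 in the Flox/Flox pool and 785 in the L-Lpcat3 KO pool, a log2 ratio of 0.00. For these 3 perilipins the pools were thus nearly level.

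Plin5 is the perilipin of oxidative tissues such as heart, muscle and fasting liver, where it links droplets to mitochondria and binds both the lipase and its co-activator. Its brighter probe set read 3199 in the Flox/Flox pool and 4310 in the L-Lpcat3 KO pool, a log2 ratio of 0.43. The other read 1447 and 1995, a log2 ratio of 0.46. Both probe sets of Plin5 were thus higher in L-Lpcat3 KO, by 34.7% and 37.9%. They share the array and the RNA and are no replicates of the condition. The gene next to Plin5 on chromosome 17 is Plin4, whose log2 ratio was 0.00.

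Cidec, also called Fsp27, is a droplet fusion factor of adipocytes that is scarce in lean liver and known to accompany hepatic fat storage. Its probe set had a signal of 49.1 in the Flox/Flox pool, below the floor, and of 164 in the L-Lpcat3 KO pool. With the Flox/Flox pool set to the floor, the signal was at least 2.15-fold higher in L-Lpcat3 KO. The L-Lpcat3 KO signal was 2.15 times the floor and thus dim. Of the 735 genes that lay at the floor in Flox/Flox and above it in L-Lpcat3 KO, 30 (4.08%) had a bound of 2-fold or more.

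To gauge background, genes that belong to retina, lens or testis were read from 43 probe sets (29 genes). These had a median signal of 13.6 and a 90th percentile of 88.5. Of their 86 signals, 17.4% exceeded the floor, and 3 of the 43 probe sets reached the Cidec signal of L-Lpcat3 KO in at least 1 pool. Only 9 of the 43 exceeded the floor in at least 1 pool, and none of these 9 was 2-fold apart after the floor in either direction. The other probe sets were raised to the floor in both pools. Their pools are level by construction, so they cannot show how far background signals scatter. The Flox/Flox signal of Cidec lay below the 90th percentile of the 86 signals and its L-Lpcat3 KO signal above it.

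Cidea, the CIDE gene of brown fat that also appears in steatotic liver, was 36.8 in the Flox/Flox pool and 49.7 in the L-Lpcat3 KO pool. Both signals were below the floor, so no ratio is given. Cideb, the CIDE gene of hepatocytes, which serves the lipidation of very low density lipoproteins, was 10788 in the Flox/Flox pool and 10339 in the L-Lpcat3 KO pool (log2 ratio -0.06). The 3 CIDE genes thus held 1 gene dim and higher in L-Lpcat3 KO, 1 not above background and 1 bright and nearly level between pools.

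G0s2 was first described as a gene of the switch from rest to the cell cycle and acts in liver and fat as the inhibitor of adipose triglyceride lipase. Its signal was 7933 in the Flox/Flox pool and 11352 in the L-Lpcat3 KO pool, a log2 ratio of 0.52. The L-Lpcat3 KO pool was higher by 3419 signal units or 43.1%. Pnpla2, the lipase itself, was 2284 in the Flox/Flox pool and 2569 in the L-Lpcat3 KO pool by its brighter probe set (log2 ratio 0.17). Its other probe set, with 62.7 in the Flox/Flox pool and 35.1 in the L-Lpcat3 KO pool, did not reach the floor in either pool and gave no ratio. Inhibitor and lipase thus both had log2 ratios above 0, with that of the inhibitor the larger by these single values.

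Hsd17b13, a hepatocyte enzyme of the hydroxysteroid dehydrogenase family that sits on droplets, was 13016 in the Flox/Flox pool and 13160 in the L-Lpcat3 KO pool by its brighter probe set (log2 ratio 0.02). Its dim probe set read 184 in the Flox/Flox pool and 144 in the L-Lpcat3 KO pool, a log2 ratio of -0.35. The 2 probe sets thus had opposite signs, and neither was 1.5-fold apart. Hsd17b11, its neighbour on chromosome 5 and a related droplet protein, was 15565 in the Flox/Flox pool and 17864 in the L-Lpcat3 KO pool by its brightest probe set (log2 ratio 0.20). A dimmer measured probe set of Hsd17b11 had a log2 ratio of 0.03.

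Because ratios of dim probe sets scatter more, the members were read against probe sets of like signal that exceeded the floor in each pool. From the floor to the 75th percentile of signals (386.7), the log2 ratios of 9650 probe sets had an SD of 0.39, and 12.4% were 1.5-fold apart. The dim Hsd17b13 probe set lies in that range. From the 75th to the 95th percentile (3748) the SD of 8964 probe sets was 0.24 and 2.39% were 1.5-fold apart. Above the 95th percentile the SD of 2236 probe sets was 0.17 and 0.85% were that far apart. These SDs are across probe sets of 1 pair of arrays and do not measure variation among mice. Of the 13 probe sets, 10 exceeded the floor in each pool, and 0 of these 10 were 1.5-fold apart.

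**Figure D2:**
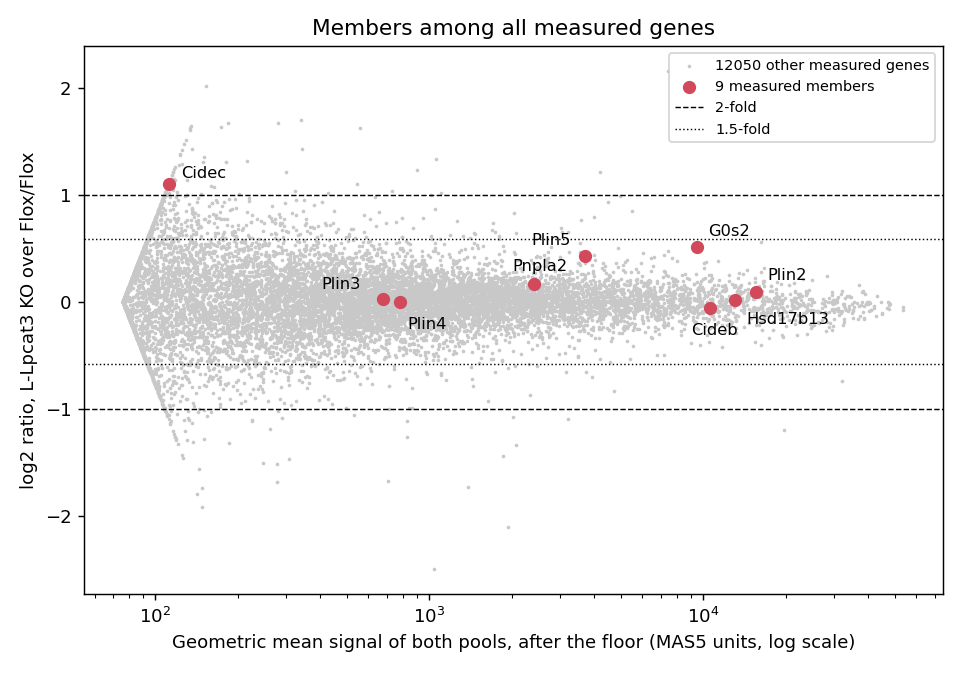
The y axis is the log2 ratio between pools, L-Lpcat3 KO over Flox/Flox, and the x axis the geometric mean of both signals after the floor ( MAS5 units, log scale), with the 9 measured members in red and the other measured genes in grey. Dashed lines mark 2-fold and dotted lines 1.5-fold. Cidec lies on the edge formed by genes at the floor in Flox/Flox, G0s2 (0.52) and Plin5 (0.43) lie at the upper margin of the cloud at their signals, and the other 6 lie within it between -0.06 and 0.17.

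The smaller size of 1.2-fold was used for genes with a mean signal above the 75th percentile, which took in 8 members. Of the 4 from the 75th to the 95th percentile (Plin3, Plin4, Plin5 and Pnpla2), 1 was 1.2-fold higher, Plin5, against 8.94% of the 5572 genes in that range. Of the 4 above the 95th percentile (Plin2, Cideb, G0s2 and Hsd17b13), 1 was 1.2-fold higher, G0s2, against 3.51% of 1453 genes. None of the 8 was 1.2-fold lower, against 8.2% of 7025 genes. With 4 genes per range, a count of 1 gives no rate that could be set against these percentages. The median log2 ratio was 0.06 over the 8 members and 0.00 over all 7025 genes above the 75th percentile.

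Other genes of lipolysis, chosen by their roles, included 17 measured genes. None was 1.5-fold apart, where 4.01% of all measured genes were 1.5-fold higher and 3.14% lower. With 17 genes, a count of 0 gives no rate that could be set against these percentages. The median log2 ratio of the 17 was -0.03. Abhd5, which encodes CGI-58, the protein that activates the lipase, was 965 in the Flox/Flox pool and 845 in the L-Lpcat3 KO pool by its brightest probe set (log2 ratio -0.19). A further measured probe set of Abhd5 had a log2 ratio of 0.02. Hormone-sensitive lipase (Lipe) had the lowest log2 ratio of the list, -0.38, and lysosomal acid lipase (Lipa) the highest, 0.28. Monoacylglycerol lipase (Mgll), which frees the last fatty acid, had a log2 ratio of 0.21. The brightest of these genes, the microsomal hydrolases Aadac and Ces1f, had log2 ratios of 0.02 and 0.10. Hilpda, which encodes another inhibitor of the lipase, was dim, with 140 in the Flox/Flox pool and 123 in the L-Lpcat3 KO pool.

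Genes that form droplets and other droplet proteins also lay within 1.5-fold by their brightest probe sets. A dimmer probe set of Rab8a read 178 in the Flox/Flox pool and 281 in the L-Lpcat3 KO pool (1.58-fold), while its brightest had a log2 ratio of 0.19. Of all measured genes, 4.01% were 1.5-fold higher and 3.14% lower. Of 13 measured genes of droplet formation, 0 were 1.5-fold apart and the median log2 ratio was -0.03. Fitm1 and Fitm2, which encode the fat storage-inducing proteins that partition triglyceride into droplets, had the highest log2 ratios of this list, 0.36 each. Acsl3, which activates fatty acids at nascent droplets, had the lowest, -0.33. The brightest were Lpin1 (log2 ratio 0.12) and Dgat2 (0.03). Among 27 measured genes of other droplet proteins, such as Rab18 (0.18) and the coat protein gene Copa (0.00), the median was -0.01 and 0 were 1.5-fold apart. The brightest of these, Mtarc1 and Mtarc2, had log2 ratios of -0.01 and 0.05. Over these 3 lists together, 57 genes outside the 10 were measured, with log2 ratios from -0.38 to 0.36 and a median of -0.02. Of the 57, 6 were 1.2-fold higher and 4 were 1.2-fold lower, where 15.5% and 13.6% of all measured genes were. Those shares include dim genes, whose ratios scatter more. From the 75th to the 95th percentile of signals 8.94% of genes were 1.2-fold higher, and above the 95th 3.51%. Above the 75th percentile 8.2% were 1.2-fold lower. The 57 genes were not matched by signal to any of these sets.

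Droplets can also be taken up whole by lysosomes, a route called lipophagy. Of 14 measured genes of this route, 0 were 1.5-fold higher and 2 were lower by their brightest probe sets. Of all measured genes, 4.01% were higher and 3.14% lower. A dim probe set of Becn1 read 98.7 in the Flox/Flox pool and 225 in the L-Lpcat3 KO pool, while its brightest had a log2 ratio of -0.05. Tfeb, the transcription factor of lysosome genes, was 203 in the Flox/Flox pool and 83.2 in the L-Lpcat3 KO pool (log2 ratio -1.29), the second value being close to the floor. Rubcn, which encodes the inhibitor of autophagy Rubicon, was 466 in the Flox/Flox pool and 310 in the L-Lpcat3 KO pool (log2 ratio -0.59). The brightest genes of the route, Lamp2 and Hspa8, each had a log2 ratio of 0.01. The median of the list was -0.01.

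Triglyceride synthesis, which fills the droplet, gave 14 measured genes with a median log2 ratio of 0.11. Of all measured genes, 4.01% were 1.5-fold higher and 3.14% lower. By their brightest probe sets, 0 of the 14 were 1.5-fold lower and 1 was higher. This was Mogat1, a monoacylglycerol acyltransferase that is scarce in lean liver, with 71.2 in the Flox/Flox pool, below the floor, and 147 in the L-Lpcat3 KO pool, at least 1.93-fold higher. Mogat1, as Cidec, was thus among the 735 genes at the floor in Flox/Flox and above it in L-Lpcat3 KO. Whether these genes are linked was not tested. A dimmer probe set of Lpin2 read 722 in the Flox/Flox pool and 1219 in the L-Lpcat3 KO pool (1.69-fold), while its brightest had a log2 ratio of 0.15. For Agpat5 a dim probe set, below the floor in Flox/Flox, was at least 1.75-fold higher in L-Lpcat3 KO, while its brightest had a log2 ratio of -0.03.

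**Figure D3:**
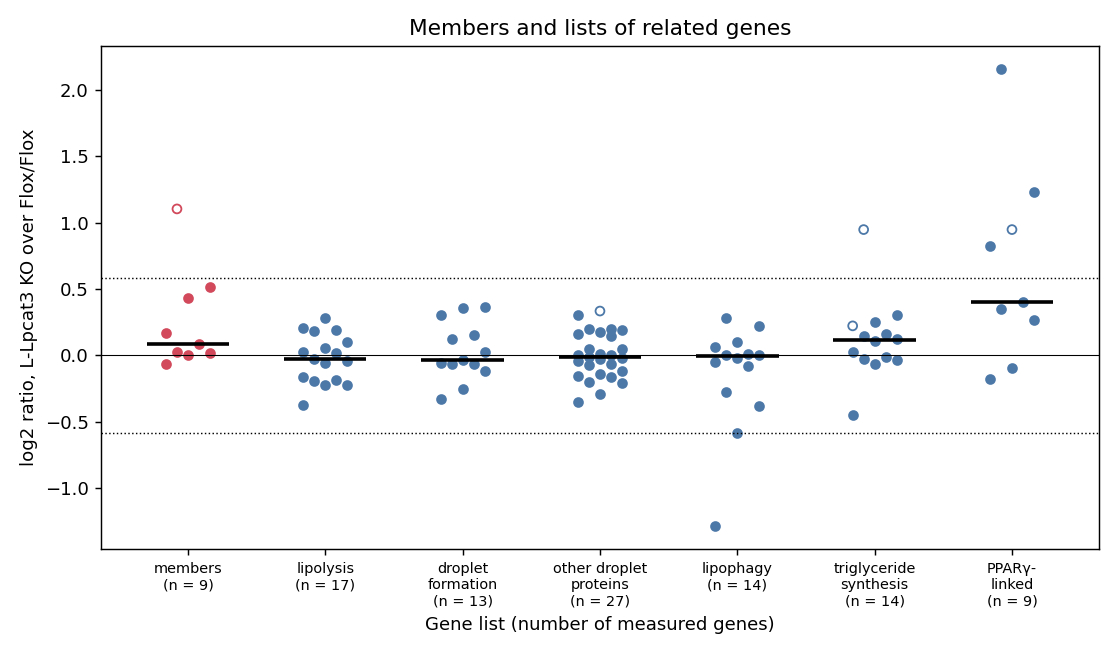
The y axis gives the log2 ratio between pools, L-Lpcat3 KO over Flox/Flox, for each measured gene of the 10 (red, 9 genes) and of 6 lists of related genes (blue), 1 point per gene by its brightest probe set. Open points have 1 pool at the floor, horizontal bars are medians and dotted lines mark 1.5-fold. Medians are 0.09 for the members, between -0.03 and -0.01 for lipolysis, droplet formation, other droplet proteins and lipophagy, 0.11 for triglyceride synthesis and 0.40 for PPARγ-linked genes.

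Several of the 10 genes, level ones among them, are known targets of PPARα or PPARγ, and other targets were therefore set beside them. Of 35 measured PPARα targets outside the 10 genes, 32 had log2 ratios above 0 by their brightest probe sets. At 1.5-fold, 8 were higher and 0 were lower, with a median of 0.15. Of all measured genes, 4.01% were 1.5-fold higher and 3.14% lower, and the median was 0.00. Cyp4a14, a fatty acid omega-hydroxylase, had a log2 ratio of 2.16 and the fatty acid transporter Cd36 one of 1.23. Fgf21 was at least 3.09-fold higher, from a Flox/Flox signal below the floor. The brightest targets, Fabp1 (log2 ratio -0.07) and Acaa1b (0.10), were nearly level between pools, as was Plin2 (0.09). Among 9 measured genes linked to PPARγ in fatty liver, 4 were 1.5-fold higher and 0 lower, and the median was 0.40. Of these 4, Cd36, Cyp4a14 and Mogat1 also stand in the lists above. The remaining gene was Pparg itself, with 213 in the Flox/Flox pool and 377 in the L-Lpcat3 KO pool (log2 ratio 0.82). Members of these lists differ in signal and were not matched to the 10 genes, so no difference between the lists was tested. Both lists were chosen with earlier results of these data known. The PPARα list holds Cd36 and Txnip, which the paper names as induced in L-Lpcat3 KO livers on chow. The counts are therefore a description and no independent support for a change in PPAR targets.

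Cidec and Plin4 are also genes of adipocytes, and markers of cell types were examined beside them. Of 7 adipocyte markers with a probe set, 4 were below the floor in both pools, among them the defining genes Adipoq (61.8 in the Flox/Flox pool and 9.21 in the L-Lpcat3 KO pool) and Lep (4.17 and 2.91). The remaining 3 had a summed signal, after the floor, of 1085 in the Flox/Flox pool and 1129 in the L-Lpcat3 KO pool. As deposited, the sum over all 7 was 1240 and 1119, so its direction turns with the signals below the floor. Most of either sum is the brightest probe set of Fabp4, a gene that macrophages and endothelial cells also express, with a log2 ratio of 0.27, while its other 2 measured probe sets had log2 ratios of -0.61 and -0.16. Lipe (-0.38) and Retn (-0.12, its L-Lpcat3 KO signal being at the floor) had log2 ratios below 0. All 11 Kupffer cell and macrophage markers had log2 ratios below 0 by their brightest probe sets. Their median was -0.30, where that of all measured genes was 0.00. Their summed signal was 12144 in the Flox/Flox pool and 10503 in the L-Lpcat3 KO pool. Medians were 0.14 for stellate cell markers (sum 14520 and 15192) and 0.22 for endothelial cell markers (sum 8350 and 9505). Of the measured stellate cell markers, 8 had log2 ratios above 0 and 1 below. The endothelial cell markers were mixed, with 6 above 0 and 4 below, from -0.38 to 0.42. Whether these differences in markers have a part in the ratios of the 10 genes was not tested.

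The ratios of the members depended little on scaling and more on how dim signals were treated. Over the setting used here and 9 alternatives, log2 ratios ran from 0.51 to 0.53 for G0s2, from 0.42 to 0.46 for Plin5, from 0.16 to 0.17 for Pnpla2 and from 0.08 to 0.11 for Plin2. Cideb was below 0 in each of the 9 settings that kept its probe set. For Cidec the log2 ratio ran from 0.94, with a pseudocount in place of the floor, to 1.74, with a lower floor or none, where the Flox/Flox signal treated here as not above background enters as deposited. Cidec was past 1.5-fold in each of 9 settings and was not measured in the remaining one, where the floor was the 75th percentile of signals.

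**Figure D4:**
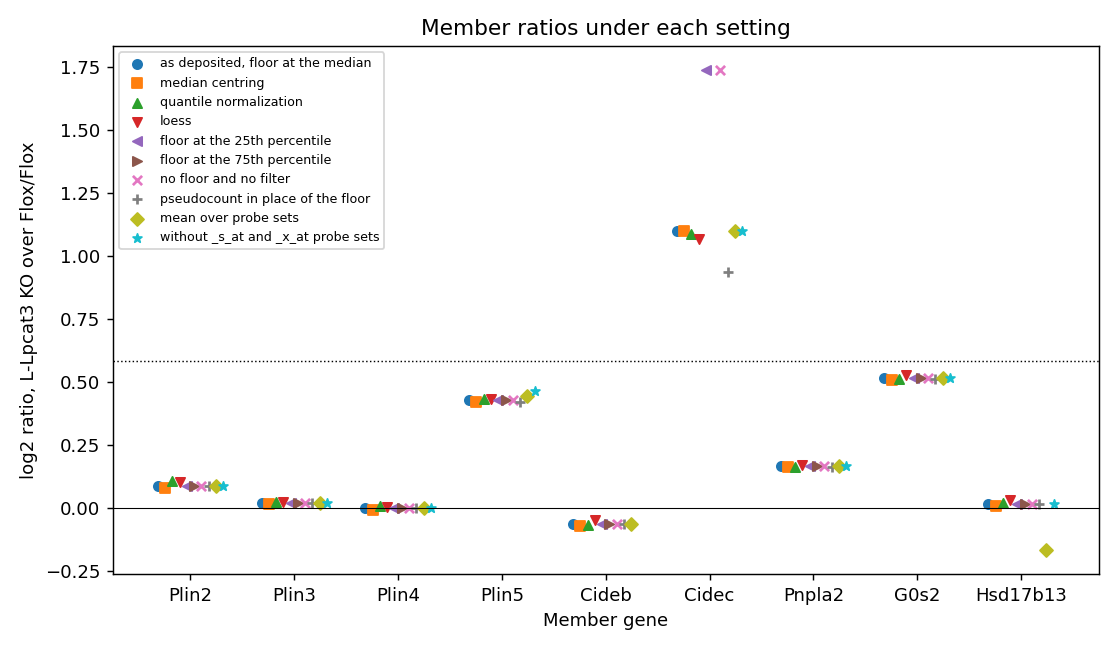
The y axis gives the log2 ratio between pools, L-Lpcat3 KO over Flox/Flox, for each of 9 measured members along the x axis under the setting of the report and 9 alternatives, 1 symbol per setting. The dotted line marks 1.5-fold. Values of a gene coincide closely except for Cidec (0.94 to 1.74) and for Hsd17b13 as a mean over its probe sets (-0.17).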

How the data were processed

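Total liver RNA of 5 pooled mice per genotype was hybridized to 1 Affymetrix mouse whole-genome array. For each array the authors deposited the intensity of every probe set. The submitters' processing notes name MAS5 (version: not given in the sources used here), and GeneSpring GX is named in the methods. MAS5 corrects background with mismatch probes, which makes dim signals noisy. The mean without the lowest and highest 2% of signals was 500.0 on both arrays, so no further scaling was applied. The highest signal was 60906 on the Flox/Flox array and 55070 on the other. No detection calls entered the analysis.

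Of 45101 probe sets, 64 were controls, 34945 had 1 gene symbol in the platform annotation (updated by gene ID to RefSeq, GRCm38.p6), 932 listed several genes and 9160 were unnamed here; the last groups were left out of gene values. A few list genes were matched by older symbols. Log2 ratios are L-Lpcat3 KO minus Flox/Flox after the floor, a gene taking its brightest probe set (highest mean log2 signal). Of 12059 measured genes, 10820 were above the floor in both pools. A ratio against the floor is a bound for this floor. With 1 array per genotype no test was possible. The number of arrays limits the precision.

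All 10 genes, Lpcat3 and, from each list, up to 4 genes at least 1.5-fold apart and the 2 brightest were to be named; further genes were named for their role after their values were seen. The members and lists were chosen with earlier results of these data known. Alternatives were 3 scalings (median centring, quantile, loess with span 0.3), floors at the 25th or 75th percentile, no floor, a pseudocount instead of it, the mean over probe sets, and leaving out probe sets ending in _s_at or _x_at. The scripts were tested on simulated data in which the planted genes lay well above the floor in both pools. Genes at the floor in 1 pool, such as Cidec, were not covered. Promoter sequences are those of RefSeq; the entry of Cidea was not used here. Tools were matplotlib 3.10.9, statsmodels 0.14.6, scipy 1.17.1, numpy 2.4.6 and pandas 2.3.3 under Python 3.11.15.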

Additional observations from a re-analysis of the deposited data

How the results depend on the processing

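Of 79 values of single member genes under the 9 alternatives, all 79 stayed on the same side of 1.5-fold as in the report. The sign differed for Plin4 under median centring (log2 ratio -0.01) and for Hsd17b13 as a mean over its probe sets (-0.17), both within 1.2-fold. When the floor was raised to the 75th percentile (386.7), Cidec was not measured and 0 member genes were 1.5-fold higher, since fewer genes are measured then. Leaving out probe sets ending in _s_at or _x_at left Cideb without a value. Cidea was measured only with the floor at the 25th percentile (21.96) or without one (log2 ratio 0.43 in both cases), from signals below the floor used in the report. The counts over all genes followed the floor by construction, as dim genes enter or leave. Genes 1.5-fold higher numbered 483 as reported, 1769 with the floor at the 25th percentile, 57 with it at the 75th and 2721 with neither floor nor filter, and genes 1.5-fold lower 379, 1383, 59 and 2356. No paired analysis was possible because each genotype is 1 array, and for the same reason no replicate could be left out. A ratio near 0 at high signal does not show that RNA levels were alike, and a ratio of dim signals is not well measured.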
